A study of Mus musculus with 9 samples.

Results

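The 10 genes described here are H19, Igf2, Peg3, Dlk1, Meg3, Mest, Plagl1, Cdkn1c, Grb10 and Igf2r, a set of imprinted growth genes taken by symbol from the 54532 Ensembl genes of the deposited count table. The set was chosen by gene name and with the measured levels in view, since some of these genes were known to be lower at 60 or 90 days than at 30 days. Differences from the 30-day libraries are therefore a description, without a test. The step from 60 to 90 days was tested over all genes, but it uses the same 60- and 90-day libraries that were in view when the genes were chosen. For genes chosen as low at 60 days the choice itself favours a higher value at 90 days, so these p-values are not independent of the choice and nothing is rested on them. A total of 8 of the 10 genes passed the filter on low counts, out of 15224 genes tested in all. Igf2 and Dlk1 did not pass it.

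The material was submandibular salivary gland from wild-type (WT) mice that had all received 10 Gy of radiation, with 3 libraries at 30 days, 3 at 60 days and 3 at 90 days. Strain, age and sex are not given in the labels, every group was irradiated, and no unirradiated gland is compared here, so time after radiation and the ageing of the animals cannot be told apart. Tissue sections of the gland were the source of the RNA. Nothing in the labels says that the 3 libraries of a time point came from separate animals, so p-values measure the spread between these libraries, which may be technical. Levels are CPM, counts scaled to library size, here after TMM normalization (trimmed mean of M-values, which adjusts for library make-up). Each difference is a log2 fold change given with its standard error (SE).

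An imprinted gene is expressed mainly from the copy inherited from one parent, because methylation laid down in the germ line marks a nearby control region. Several imprinted genes act on growth: the paternally expressed Igf2, Dlk1, Peg3 and Mest are mostly linked to growth of the fetus, and the maternally expressed H19, Cdkn1c, Grb10 and Igf2r mostly restrain it. Many of them are high in fetal and newborn organs and decline as the organ matures. The counts do not separate the parental copies, so the values below are total RNA from both and say nothing on imprinting itself.

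Libraries held 16541396 to 26065856 counts, and the 30-day libraries were the shallowest, at 16541396 to 17179500. A single acinar secretory gene, Mucl2, took 31.4% to 42.8% of all counts. A floor of 3 counts corresponds to 0.101 to 0.213 CPM, and it covers counting error only. Of 9 submandibular acinar markers all 9 were tested, Aqp5 and Bhlha15 among them and summing to 273000 to 535000 CPM, while 5 sublingual markers summed to 3.63 to 6.71 CPM. Skeletal muscle markers summed to 1.66 to 3.24 CPM. Library 1 at 90 days stood apart in neuronal genes: Uchl1, a neuronal ubiquitin hydrolase, was at 4.98 CPM there and at 0.0452 to 1.30 CPM in the other 8 libraries, and Tubb3, neuronal tubulin, was at 4.95 against 0.0708 to 1.68 CPM. Chat, the enzyme that makes acetylcholine, had 9 counts in that library, 1 in 90-day sample 2 and 0 in the other 7 libraries. Differences of Peg3 and Meg3 at 90 days and the nerve marker counts are given with and without it.

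Expressed per length, the set spanned a wide range, with the IGF2 clearance receptor at the top and IGF2 itself at the bottom. At 30 days Igf2r measured 9.37 ± 0.722 CPM per kilobase of exon, Plagl1 2.28 ± 0.386, Grb10 1.34 ± 0.247, Cdkn1c 1.01 ± 0.260 and H19 0.952 ± 0.452 (SD, n = 3). Mest followed at 0.485 ± 0.0603, Meg3 at 0.371 ± 0.104, Peg3 at 0.272 ± 0.0304, Dlk1 at 0.0809 ± 0.0317 and Igf2 at 0.0180 ± 0.0213 CPM per kilobase (SD, n = 3). The 30-day values of Igf2r lay above all those of Plagl1, and those of Plagl1 above all those of Grb10. From Grb10 down to Peg3 each gene overlapped its neighbour in this order. Peg3 did not overlap with Dlk1, nor Dlk1 with Igf2. The lengths are those of all annotated exons together, so genes with many long isoforms, such as Meg3 with 18.1 kb, come out low on this scale.

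**Figure D1:**
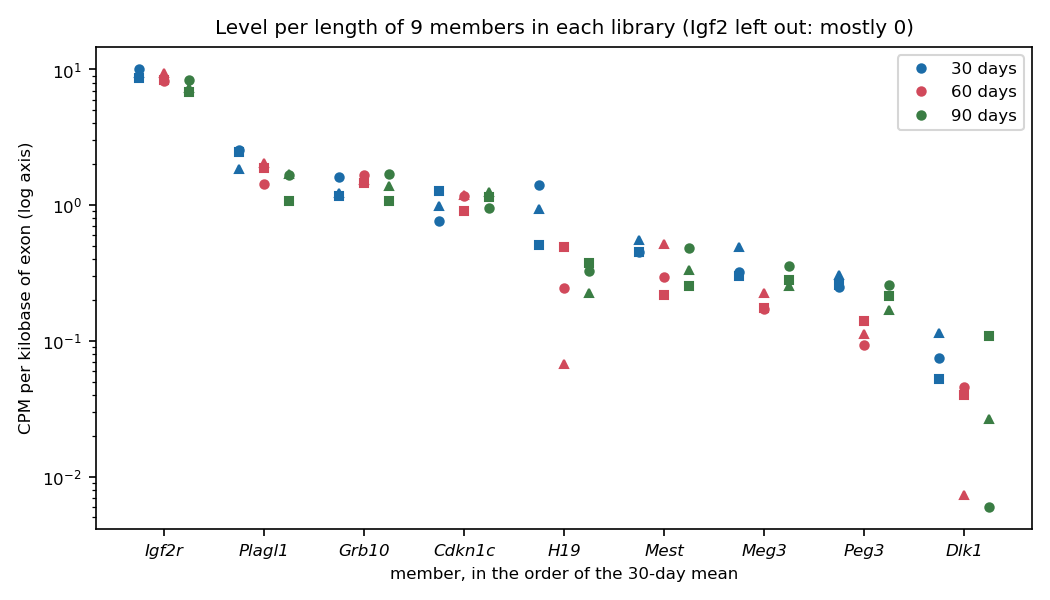
Level per length (CPM per kilobase of exon, log axis) of 9 members in each library, ordered by the 30-day mean; circles, squares and triangles are samples 1, 2 and 3. Igf2r lies highest, at a 30-day mean of 9.37, and Dlk1 lowest, at 0.0809; Igf2, at 0 in 7 of 9 libraries, is left out.

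Igf2 encodes the fetal growth factor IGF2, and it was barely detected. The 30-day libraries held 1, 4 and 0 counts, and all 6 libraries at 60 and 90 days held 0, which allows up to 0.101 to 0.150 CPM in each of them. The 30-day library with 4 of the 5 counts, sample 2, was also higher than the other 30-day libraries in adipocyte genes, with 23 counts of Adipoq against 0 and 1 and 64 of Cfd against 0 and 15, and the part of this in the Igf2 counts was not tested. No fold change is given, since the 30-day level of 0.103 ± 0.122 CPM (SD, n = 3) is itself below the floor of the 30-day libraries, 0.177 to 0.213 CPM. The gene lies on chromosome 7 (GRCm38 142650766 to 142666816, minus strand). Of its 5723 exon bases, 62.8% are shared with the read-through gene Gm49394, itself at 0 counts. Reads that fit both genes may have been left uncounted, and how the counting treated them is not given in the sources used here. The other IGF ligand, Igf1, was present at 4.07 ± 0.561, 3.95 ± 1.41 and 4.53 ± 0.473 CPM at 30, 60 and 90 days (SD, n = 3), and its receptor Igf1r at 24.3 ± 2.91, 19.2 ± 1.71 and 20.6 ± 1.58 CPM. These 2 were picked for their role.

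H19, a long non-coding RNA that shares enhancers with Igf2 on the same chromosome (142575529 to 142578143, minus strand), was highest at 30 days. It measured 3.47, 1.25 and 2.31 CPM in the 30-day libraries, 0.604, 1.22 and 0.167 CPM at 60 days, and 0.808, 0.927 and 0.552 CPM at 90 days. All 6 later libraries were below all 30-day libraries, but 30-day sample 2 and 60-day sample 2 nearly touched. The log2 difference was -1.81 ± 0.54 (SE) at 60 days and -1.59 ± 0.53 at 90 days relative to 30 days. These rest on few reads, 21 to 49 counts per library at 30 days and as few as 4 in 60-day sample 3. Without 60-day sample 2 the 60-day difference was -2.58, and without 60-day sample 3 it was -1.35. From 60 to 90 days the difference was 0.23 ± 0.55 (edgeR quasi-likelihood test, Benjamini-Hochberg adjusted p = 0.927), and without 60-day sample 3 it was -0.24.

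An exon of H19 also carries the precursor of miR-675, so its reads come from the host RNA of a microRNA. Its products are shown with the seed, bases 2 to 8, in capitals (RefSeq, GRCm38.p6, chr7:142577078-142577099 for the 3p and chr7:142577112-142577133 for the 5p arm, minus strand). The seeds of the arms differ.
mmu-miR-675-5p: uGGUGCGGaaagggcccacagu
mmu-miR-675-3p: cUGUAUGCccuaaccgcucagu
Mature microRNAs are too short for this library type and were not measured; the annotated precursor itself had 0 counts.

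Igf2r, the mannose 6-phosphate receptor that carries IGF2 to the lysosome, was the best measured of the set, with 1325 to 2301 counts per library. It stood at 93.9, 80.4 and 87.4 CPM at 30 days, 76.8, 78.1 and 87.3 CPM at 60 days and 77.5, 64.1 and 68.3 CPM at 90 days. The 90-day libraries were all below the 30-day ones, by -0.32 ± 0.11 (SE) on the log2 scale, while the 60-day libraries overlapped with both. With library totals in place of TMM the difference was -0.09, beside a shift of 0.24 in the median of all genes. From 60 to 90 days the difference was -0.21 ± 0.11 (edgeR adjusted p = 0.496). Airn, the non-coding RNA transcribed across Igf2r from the opposite strand, differed by -0.18 ± 0.22 from 30 to 90 days (edgeR adjusted p = 0.756).

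Grb10, an adaptor that dampens signalling by the insulin and IGF1 receptors, overlapped between all time points. Its levels were 14.7, 10.6 and 11.1 CPM at 30 days, 15.3, 13.2 and 13.9 CPM at 60 days and 15.6, 9.75 and 12.6 CPM at 90 days. Cdkn1c, which encodes the cell cycle inhibitor p57, was at 2.06 ± 0.529, 2.21 ± 0.314 and 2.28 ± 0.306 CPM (SD, n = 3). Its groups overlapped too. From 60 to 90 days the log2 difference was -0.16 ± 0.17 for Grb10 (SE; edgeR adjusted p = 0.794) and 0.04 ± 0.29 for Cdkn1c (SE; edgeR adjusted p = 0.981). Of the exon bases of Cdkn1c, 30.7% lie opposite Gm44732, an antisense gene with 0 counts.

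Peg3 and Meg3 were both lowest at 60 days. Peg3, a zinc finger protein gene on chromosome 7 (6703892 to 6730431, minus strand), measured 3.33, 3.44 and 4.08 CPM at 30 days, then 1.25, 1.85 and 1.5 CPM at 60 days, and 3.47, 2.88 and 2.26 CPM at 90 days. All 60-day libraries lay below every 30-day and every 90-day library. Meg3, a long non-coding RNA on chromosome 12 (109541001 to 109571726, plus strand), stood at 5.81, 5.46 and 8.87 CPM at 30 days, 3.11, 3.16 and 4.09 CPM at 60 days and 6.47, 5.05 and 4.56 CPM at 90 days. Here too the 60-day libraries did not overlap with the others. In bulk tissue, fewer cells of a type that expresses a gene and less RNA per cell cannot be told apart.

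At 60 relative to 30 days the log2 difference was -1.24 ± 0.28 (SE) for Peg3, ranging from -1.39 to -1.11 when libraries were left out singly. For Meg3 it was -0.96 ± 0.24 (SE), ranging from -1.10 to -0.70. The smallest difference for Meg3 came without 30-day sample 3, its highest library. At 90 relative to 30 days the differences were -0.33 ± 0.27 for Peg3 and -0.32 ± 0.23 for Meg3 (SE). Without 90-day sample 1 both were -0.49, and with library totals both were -0.10, beside a shift of 0.24 in the median of all genes. Peg3 was -0.19 without 90-day sample 3, and Meg3 was -0.07 without 30-day sample 3. The comparisons with 30 days share the same 30-day libraries.

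Neither gene passed the test of 90 against 60 days. Peg3 was 0.91 ± 0.28 (SE) higher at 90 days on the log2 scale (edgeR adjusted p = 0.236), and Meg3 was 0.64 ± 0.23 (SE) higher (edgeR adjusted p = 0.319). Without 90-day sample 1, the library with the neuronal signal, Peg3 was 0.74 higher (edgeR adjusted p = 0.400) and Meg3 0.47 higher (edgeR adjusted p = 0.558). In Peg3, Meg3, Uchl1 and Tubb3 alike, 90-day sample 1 was the highest and sample 3 the lowest of that time point. At the other time points Uchl1 ran opposite to Peg3, on 9 counts or fewer per library. In samples 1, 2 and 3 it was at 0.638, 0.238 and 0.118 CPM at 30 days. At 60 days it was at 0.302, 0.0452 and 0.0834 CPM. Tubb3 followed the order of Peg3 at 30 days, at 0.0708, 0.416 and 0.769 CPM, but not at 60 days.

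**Figure D2:**
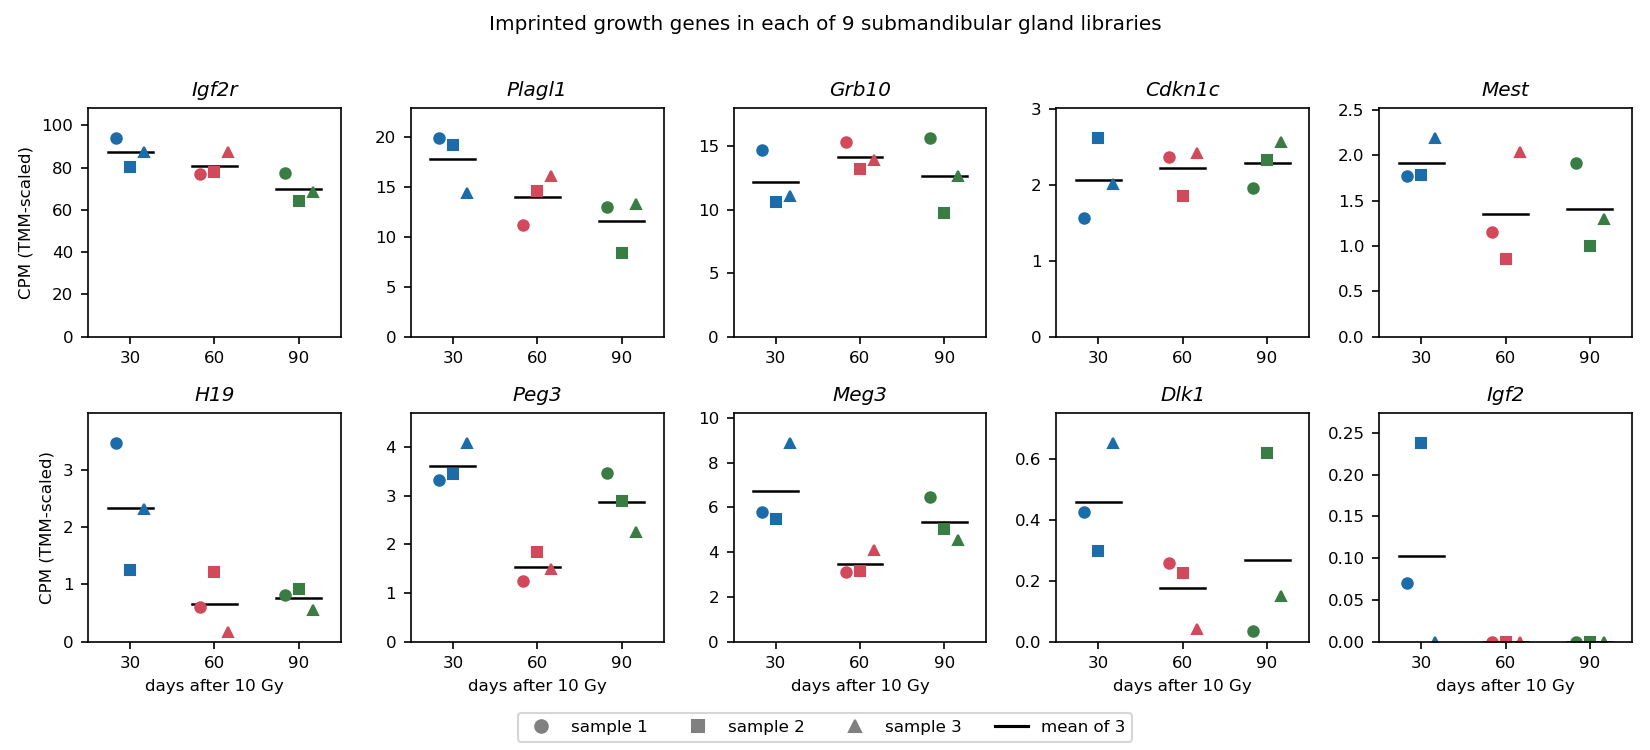
CPM after TMM scaling (y, each panel from 0) of the 10 genes by days after radiation (x); symbols are samples 1 to 3 and bars the mean of 3. Peg3 and Meg3 are lowest at 60 days, at means of 1.53 and 3.45 CPM, H19 is highest at 30 days, at 2.34 CPM, and Igf2 is at 0 in all 60- and 90-day libraries.

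The promoters of Peg3 and Meg3 are shown because both genes were lowest at 60 days, and that of Plagl1 because its product is a transcription factor linked to this set. Each window runs from 250 bases before to 50 after a transcription start in RefSeq (GRCm38.p6). For Plagl1 this start lies inside the gene as GENCODE draws it (chromosome 10, 13060504 to 13131694), not at its outer end. Capitals mark GGGGCCCC, a palindrome described for PLAGL1, TGCCGC, the hexamer bound by the imprint-keeping factor ZFP57 where it is methylated, CCATNTT, a core of YY1 sites, and TATAAA, on either strand. The windows are chr7:6730370-6730669 on the minus strand for Peg3, chr12:109540746-109541045 on the plus strand for Meg3 and chr10:13090582-13090881 on the plus strand for Plagl1.
Peg3: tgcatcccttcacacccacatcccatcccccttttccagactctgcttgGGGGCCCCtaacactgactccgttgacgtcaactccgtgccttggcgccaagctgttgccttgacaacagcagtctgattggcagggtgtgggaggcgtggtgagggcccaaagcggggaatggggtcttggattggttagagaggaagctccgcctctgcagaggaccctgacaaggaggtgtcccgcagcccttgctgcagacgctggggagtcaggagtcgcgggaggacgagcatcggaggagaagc
Meg3: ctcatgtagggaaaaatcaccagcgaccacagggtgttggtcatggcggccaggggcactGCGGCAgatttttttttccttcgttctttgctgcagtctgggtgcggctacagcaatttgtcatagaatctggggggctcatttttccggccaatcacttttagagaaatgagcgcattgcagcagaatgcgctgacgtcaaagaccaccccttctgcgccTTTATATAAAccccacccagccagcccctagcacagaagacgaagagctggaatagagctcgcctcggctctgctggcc
Plagl1: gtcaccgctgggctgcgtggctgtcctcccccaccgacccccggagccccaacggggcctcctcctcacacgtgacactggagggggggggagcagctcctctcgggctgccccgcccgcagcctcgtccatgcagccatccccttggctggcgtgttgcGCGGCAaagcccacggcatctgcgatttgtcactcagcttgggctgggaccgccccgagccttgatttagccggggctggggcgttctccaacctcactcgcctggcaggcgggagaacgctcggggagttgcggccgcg
Peg3 held 1 GGGGCCCC, a match found in 1.08% of all 32851 promoter windows of the table, and no TGCCGC. Meg3 held 1 TGCCGC, found in 11.6% of all windows, and TATAAA on both strands, overlapping, found in 13.6%. Plagl1 held 1 TGCCGC. The Peg3 and Meg3 windows held none of these letters in common.

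Windows were present for 8 of the 10 members, 15 windows in all, some of them overlapping. At least 1 TGCCGC was found in 6 windows from 5 genes, CCATNTT in 2 windows, against 16.1% of all windows, and the CTCF sequence of the H19 control region, searched on both strands, in 0, against 0.0365%. CpG pairs numbered 13 in Peg3 and 13 in the first Meg3 window, 26 in Plagl1, 34 in Igf2r and 45 in the first Grb10 window, with a median of 7 over all windows. Among the 8 members with windows, Grb10 had the most CpG pairs, in its first window, and Igf2r followed. H19 and Cdkn1c had no window, so their CpG pairs were not counted. A match is a description of letters, not of a bound site.

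Of the genes around Peg3 and Meg3, few were well covered. Usp29, which starts 147 bases from Peg3 in the opposite direction and lies partly in the window shown, had 1 count in all 9 libraries together, against 512 for Peg3. Zim1, 7.44 kb from Peg3, had 56 counts and did not pass the filter. In the Dlk1 and Meg3 region, Rian, the next non-coding RNA downstream of Meg3, was at 2.62, 2.55 and 1.89 CPM at 30 days, 1.42, 1.67 and 2.25 CPM at 60 days and 2.69, 2.54 and 2.66 CPM at 90 days. Its 90-day libraries were above all its 60-day libraries, with a log2 difference of 0.56 (edgeR adjusted p = 0.490), and its 30- and 60-day libraries overlapped. Mirg, further along the cluster, had only 58 counts in all and a log2 difference of 1.42 from 60 to 90 days (edgeR adjusted p = 0.554). Rtl1, on the opposite strand 17.5 kb from Meg3, had 13 counts.

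Dlk1, a membrane protein related to Notch ligands encoded upstream of Meg3, was near the detection floor. Its libraries held 6, 5 and 11 counts at 30 days, 6, 5 and 1 at 60 days and 1, 18 and 3 at 90 days. A single 90-day library, sample 2, held 18 of its 56 counts. It did not pass the filter, and no fold change is given.

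Mest and Plagl1 completed the set. Mest, an imprinted gene of the alpha/beta hydrolase fold, measured 1.77, 1.78 and 2.19 CPM at 30 days, 1.16, 0.859 and 2.04 CPM at 60 days and 1.92, 0.996 and 1.30 CPM at 90 days, and its groups overlapped. Its log2 difference at 60 relative to 30 days was -0.49 ± 0.38 (SE), and it ran from -0.91 without 60-day sample 3 to -0.25 without 60-day sample 2. On the opposite strand Copg2 covers 23.1% of the exon bases of Mest with its own exons, and Copg2 held 6461 counts against 299 for Mest. The use of strand in counting is not given in the sources used here, so reads from that stretch cannot be assigned with certainty.

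Plagl1, a zinc finger transcription factor that restrains proliferation, was lower in mean at each later time point. It stood at 19.9, 19.2 and 14.4 CPM at 30 days, 11.2, 14.6 and 16.1 CPM at 60 days and 13, 8.38 and 13.3 CPM at 90 days. The 90-day libraries were all below the 30-day ones, with a log2 difference of -0.63 ± 0.19 (SE), and the 60-day libraries overlapped with both. Without 90-day sample 2, the lowest library, it was -0.44. From 60 to 90 days the difference was -0.28 ± 0.19 (edgeR adjusted p = 0.634). That value was -0.09 without 90-day sample 2, -0.42 without 60-day sample 1, -0.17 without 60-day sample 3 and -0.12 with library totals.

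Counted together, 6 of the 8 genes above the filter were lower at 60 than at 30 days in the fit, with a median log2 difference of -0.42, where the median of all 15224 genes was -0.00. In 3 of the 8, H19, Peg3 and Meg3, all 60-day libraries lay below all 30-day libraries, which was so for 8.22% of all genes. At 90 relative to 30 days 6 of 8 were lower, with a median of -0.32 beside 0.01 for all genes, and the 3 without overlap were H19, Plagl1 and Igf2r, where 11.8% of all genes were lower without overlap. The set was chosen with such falls in view, so nothing is read from these counts.

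From 60 to 90 days 0 of the 8 members passed an adjusted p of 0.05 in edgeR, and 0 in DESeq2 and limma-voom, with 2, Peg3 and Meg3, at an unadjusted p under 0.05 in edgeR. Over all genes 0.256% passed, and 10.8% were at an unadjusted p under 0.05. Without 60-day sample 1 the unadjusted count was 4. The median log2 difference of the members was 0.05, and 5 of 8 were higher. Its sign turned when 1 library was left out: it was -0.13 without 60-day sample 2, -0.07 without 90-day sample 1 and -0.03 without 60-day sample 3, and 0.20 with library totals. Peg3 and Meg3 were also the 2 members whose 90-day libraries all lay above their 60-day libraries, as in 8.26% of all genes. Within a time point no library was uniformly high: the library highest in most members was 30-day sample 1 in 4 of 8, 60-day sample 3 in 5 of 8 and 90-day sample 1 in 5 of 8.

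**Figure D3:**
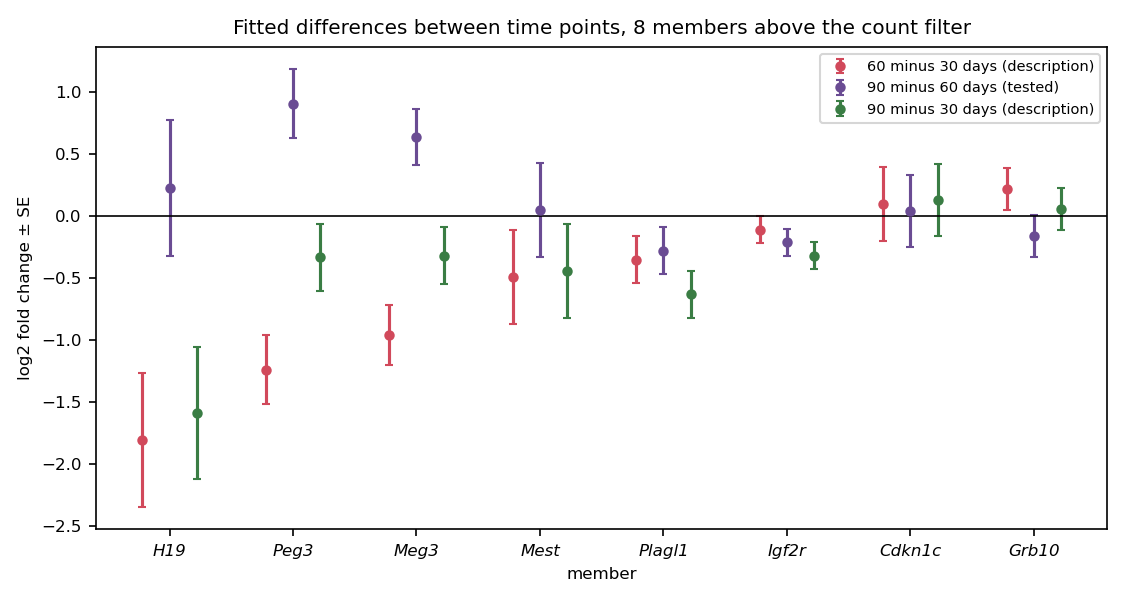
Fitted log2 fold change ± SE (y) of the 8 members above the count filter (x) for each pair of time points; only 90 minus 60 days was tested. H19, Peg3 and Meg3 lie lowest for 60 minus 30 days, at -1.81, -1.24 and -0.96, and Peg3 and Meg3 highest for 90 minus 60 days, at 0.91 and 0.64.

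Other imprinted genes, 55 in a fixed list, were set beside the 10. A total of 22 were below the filter, 4 of these (Magel2, Ins2, Calcr and Klf14) with 0 counts in every library, and 33 were tested. In edgeR 0 of the 33 passed at 60 against 30 days, where 1.56% of all genes did, 0 at 90 against 60 days, where 0.256% did, and 0 at 90 against 30 days, where 3.57% did. At an unadjusted p under 0.05 there were 2, 3 and 6 of the 33, where 12.4%, 10.8% and 16.8% of all genes were. DESeq2 called 0, 0 and 2 in the same order, the last H13 and Trappc9, and limma-voom 0 in each. Their median log2 differences were 0.07, 0.00 and 0.06, beside -0.00, 0.00 and 0.01 for all genes.

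The 4 most abundant genes of that list did not pass. H13, a signal peptide peptidase, differed by -0.33 ± 0.11 (SE) at 90 against 30 days (edgeR adjusted p = 0.0914), from 182 ± 21.8 to 145 ± 2.71 CPM (SD, n = 3). Cd81, a tetraspanin, was at 102 ± 7.37, 113 ± 5 and 111 ± 9.80 CPM at successive time points. Gnas, the stimulatory G protein subunit, was at 44.2 ± 3.89, 47.5 ± 2.38 and 49.2 ± 6.75 CPM, and the histone chaperone Nap1l4 at 46.0 ± 1.46, 50.5 ± 3.83 and 47.8 ± 2.35 CPM (SD, n = 3). Of the neighbours of Cdkn1c, H19 and Igf2 on chromosome 7 that were tested, Kcnq1, Slc22a18, Osbpl5, Tssc4 and Phlda2 among them, none passed in any comparison in edgeR.

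**Figure D4:**
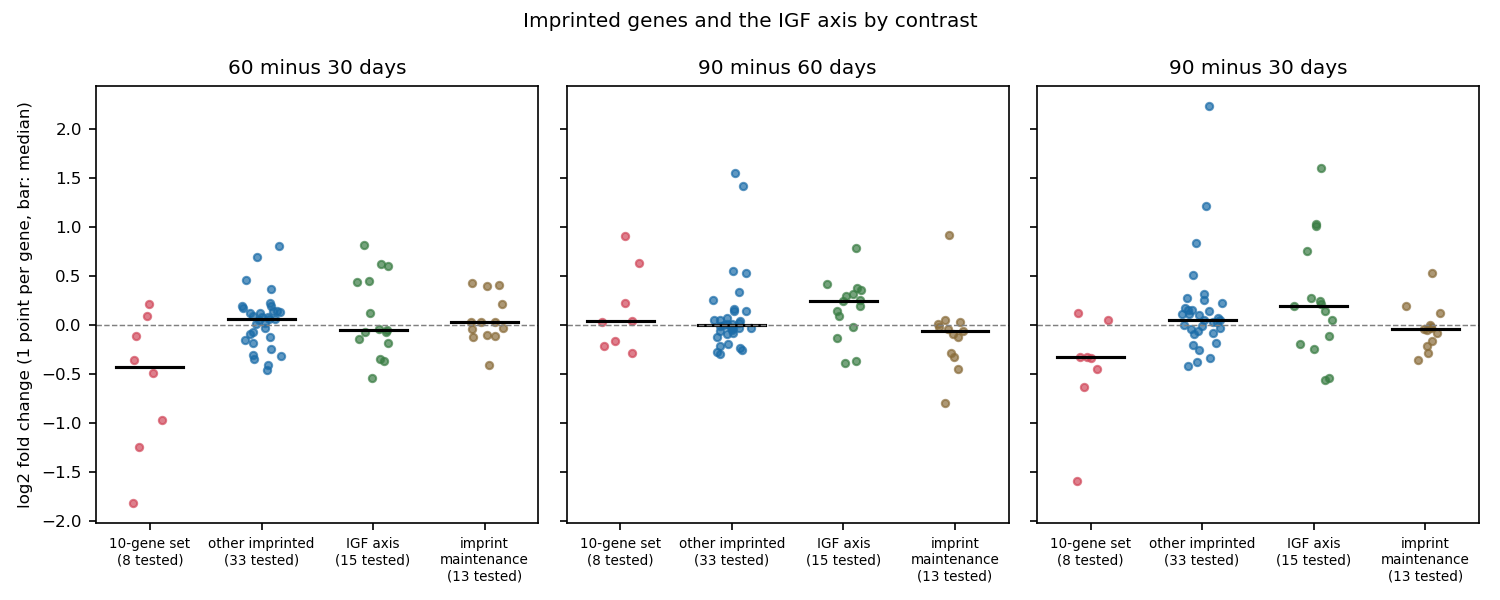
Log2 fold change (y, 1 point per tested gene, bar at the median) for the 10-gene set, other imprinted genes, the IGF axis and genes of imprint and DNA methylation control (labelled imprint maintenance), by pair of time points. The set has medians of -0.42, 0.05 and -0.32 from left to right and the other imprinted genes 0.07, 0.00 and 0.06; the set was chosen with its falls after 30 days in view.

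The IGF axis, through which Igf2, Igf2r and Grb10 act, had 2 calls. Of 20 listed genes 15 were tested. In edgeR 0 passed at 60 against 30 days and 0 at 90 against 60 days, where 1.56% and 0.256% of all genes did, and DESeq2 and limma-voom called 0 at both steps. At an unadjusted p under 0.05 there were 4 and 1 of the 15, where 12.4% and 10.8% of all genes were. At 90 against 30 days 2 rose and 0 fell, where 1.81% of all genes rose. DESeq2 called 4, Stc2 and Igfbp5 being the 2 beyond those of edgeR. In limma-voom 2 passed, but Igfals, 1 of the edgeR calls, was not among them. With edgeR, leaving out 90-day sample 2 or sample 3 gave 0 calls. Igfbp2, a binding protein that holds IGFs outside the cell, rose from 11.6, 18.5 and 21.4 CPM to 26.4, 44.8 and 34.4 CPM, with 27.4, 24.5 and 27.1 CPM at 60 days. Its log2 difference was 1.03 ± 0.22 (SE; edgeR adjusted p = 0.0249), and its 30- and 90-day libraries did not overlap. Igfals, the acid-labile subunit that stabilises IGF complexes, rose from 4.18, 5.94 and 5.80 CPM to 7.58, 11.1 and 13.7 CPM, by 1.01 ± 0.21 (SE; edgeR adjusted p = 0.0122).

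Both differences kept their direction in all 18 alternatives run, at 0.81 to 1.24 for Igfbp2 and 0.81 to 1.21 for Igfals, but the calls did not hold in all of them. Igfbp2 lost it without 30-day sample 2 (edgeR adjusted p = 0.0689), without 60-day sample 1 or 3 (0.0709 and 0.0556), without 90-day sample 2 or 3 (0.0549 and 0.0736), in the 6 libraries of the contrast alone (0.110) and at equal depth (0.0537). Igfals lost it without 30-day sample 1 (edgeR adjusted p = 0.0793), without 90-day sample 2 or 3 (0.0532 and 0.0798) and in limma-voom (0.0552). The most abundant genes of the axis, Igfbp5, Igfbp4, Insr and Igfbp7, did not pass. Igfbp5 had the largest difference of these, 0.76 ± 0.24 (SE; edgeR adjusted p = 0.142) from 30 to 90 days, at 85.8 ± 21.6 and 145 ± 27.4 CPM (SD, n = 3).

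Genes of imprint and DNA methylation control, a list labelled imprint maintenance that also holds Tet and Dnmt3 genes, showed no call. Of 15 listed, 13 were tested, and 0 passed in any comparison in edgeR, DESeq2 or limma-voom, with 0, 2 and 1 at an unadjusted p under 0.05 in edgeR for 60 against 30, 90 against 60 and 90 against 30 days. The shares of all genes at that level were 12.4%, 10.8% and 16.8%. Trim28, the co-repressor recruited to methylated imprints, was at 62.8 ± 3.05, 64.7 ± 4.84 and 62.9 ± 3.52 CPM, and Zfp445, a zinc finger protein that binds imprinted regions, at 52.5 ± 3.82, 51.1 ± 7.42 and 47.1 ± 3.43 CPM (SD, n = 3). The histone methyltransferase Ehmt2 and the demethylase Tet3 differed by -0.02 ± 0.11 and -0.21 ± 0.11 (SE) from 30 to 90 days (edgeR adjusted p = 0.960 and 0.322). Zfp57 and Dnmt3l, with 32 and 1 counts in all, did not pass the filter.

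Most markers of some other cell types were, like Peg3 and Meg3, lowest at 60 days. Of all 15224 genes, 49.6% were higher in the fit at 60 than at 30 days, and 50.1% at 90 than at 60 days. In the fit, 8 of 10 endothelial markers were lower at 60 days than at 30 (median log2 difference -0.27) and 9 of 10 were higher at 90 days than at 60 (median 0.33), with summed levels of 79.6 to 88.5, 74.2 to 77.1 and 85.1 to 102 CPM at 30, 60 and 90 days. Egfl7, secreted by endothelium, rose from 60 to 90 days by 0.94 ± 0.18 (SE; edgeR adjusted p = 0.0261). Its call was lost without 30-day sample 2, 60-day sample 2 or 3, or 90-day sample 2 or 3, at edgeR adjusted p = 0.0513, 0.103, 0.0546, 0.199 and 0.0591, with differences of 0.81 to 1.00. Fibroblast markers were lower at 60 days in 8 of 10 (median -0.12) and higher at 90 than at 60 days in 9 of 10 (median 0.13), and their sums overlapped, at 357 to 575, 351 to 500 and 439 to 514 CPM. Nerve and Schwann markers were lower at 60 days in 7 of 8 tested (median -0.27) and higher at 90 days in 6 of 8 (median 0.39), while their sum, 157 to 182, 225 to 233 and 197 to 213 CPM, followed Ngfr, which is also made outside nerves. Ngfr rose from 30 to 60 days by 1.18 ± 0.20 (SE; edgeR adjusted p = 0.0134), a call lost without any 1 of the 60-day libraries (edgeR adjusted p = 0.0776, 0.0610 and 0.0677 without samples 1, 3 and 2). Without 90-day sample 1, the nerve markers were still higher at 90 than at 60 days in 6 of 8, with a median of 0.36. Without 30-day sample 3 the fibroblast markers were higher at 60 days in 7 of 10 (median 0.07). The part of these cell types in the Peg3 and Meg3 values was not tested.

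Immune markers were lower at 60 days in 5 of 7 tested (but higher in 5 of 8 without 30-day sample 3) and higher at 90 than at 60 days in 7 of 7 (medians -0.11 and 0.35), with sums of 110 to 204, 137 to 150 and 147 to 246 CPM. Adipocyte markers had medians of 0.04 and -0.15 for the same steps, myoepithelial markers 0.23 and 0.14, and duct markers 0.15 and 0.06. Acinar markers were lower at 90 than at 60 days in 9 of 9 (median -0.38), with 1 passing in edgeR, Bhlha15 (adjusted p = 0.00581, or 0.0620 without 90-day sample 2). Over all genes 0.256% passed at that step. At 90 against 30 days 8 of 9 acinar markers were lower and 1 higher (median -0.47). In edgeR 4 of the 9 passed, all lower, where 3.57% of all genes passed in either direction. That count was 0 without 30-day sample 1 and 0 without 90-day sample 2. H19, Plagl1 and Igf2r were also lower at 90 than at 30 days. The part of acinar cells in their values was not tested. Genes of S phase and mitosis were higher at 60 than at 30 days in 18 of 20 and lower at 90 than at 60 days in 19 of 20 (medians 0.42 and -0.33), signs opposite to those of Peg3 and Meg3, and 0 of the 20 passed in edgeR at either step, adjusted or at an unadjusted p under 0.05. Over all genes 1.56% and 0.256% passed at these steps, and 12.4% and 10.8% were at an unadjusted p under 0.05. The signs of the 20 genes rested on single libraries: the summed level was 74.7, 154 and 168 CPM at 30 days, 136, 113 and 243 CPM at 60 days and 103, 152 and 157 CPM at 90 days. Without 60-day sample 3, 12 of 20 were higher at 60 than at 30 days (median 0.14), and 10 of 20 were lower at 90 than at 60 days (median -0.00). Without 30-day sample 1, 14 of 20 were higher at 60 days (median 0.11).

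**Figure D5:**
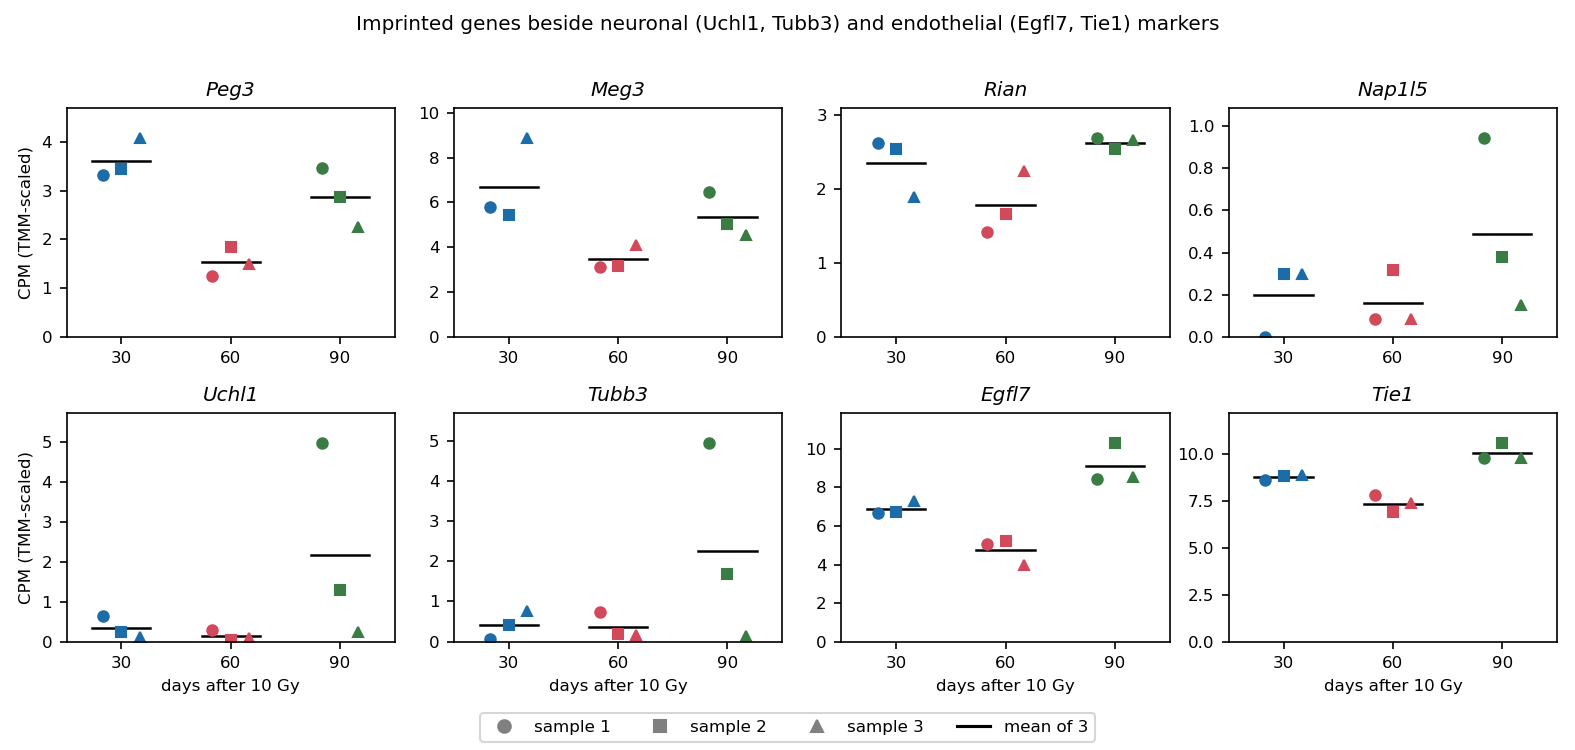
CPM after TMM scaling (y) by days after radiation (x) for Peg3, Meg3, Rian and Nap1l5, all imprinted, and for neuronal (Uchl1, Tubb3) and endothelial (Egfl7, Tie1) markers; symbols are samples 1 to 3 and bars the mean. Uchl1 and Tubb3 are high in 90-day sample 1, at 4.98 and 4.95 CPM, the highest 90-day library for Peg3 and Meg3 too, and Egfl7 and Tie1 are lowest at 60 days.

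Nap1l5, an imprinted gene known from brain, followed the neuronal markers at 90 days, with 28, 11 and 3 counts in samples 1, 2 and 3, and held 0 to 7 counts in the other libraries. It was singled out after its values were seen. Uchl1 had 148, 38 and 5 counts in the same libraries. Ndn, another imprinted gene of neurons, did not share that order, at 2.86, 4.63 and 2.76 CPM.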

How the data were processed

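The authors deposited raw read counts for 54532 Ensembl genes, a column per library. The submitters' processing notes name fastp, STAR, featureCounts and mm10. Annotation, versions and use of strand are not given in the sources used here. A further 3 columns match no sample used here and were left out. Columns were matched to samples by day and number. GENCODE mouse release 21 (GRCm38) gave symbols, positions and exon lengths for 54495 identifiers.

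Genes were filtered with filterByExpr (minimum count 10), scaled with TMM and fitted over all 9 libraries by time point in edgeR 4.0.16 (R 4.3.3). The quasi-likelihood test was adjusted by Benjamini-Hochberg over all 15224 genes, threshold 0.05. SEs come from the log2 fold change and its F statistic. Between replicates of a group, counts differed beyond sampling noise in every pair. On simulated counts for 90 against 60 days (14946 genes, 200 changed) the test recovered 70.1% of changes of 1 on the log2 scale and 90.6% of changes of 2, and 8.28% of its calls were false. The changed genes were drawn at random from all filtered genes. Recovery at counts as low as those of H19, Mest, Cdkn1c or Peg3 was not taken separately, so these rates do not carry over to the members.

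The members and lists were chosen with earlier results of these data known. All members were named. From the imprinted, IGF and imprint maintenance lists, genes that passed and the 4 most abundant were named. For the marker lists the plan was to name up to 3 genes per list with the smallest p for any difference. Of those, only Egfl7, Tie1, Ngfr, Uchl1, Tubb3, Bhlha15 and Aqp5 are named here. Those of the duct, myoepithelial, fibroblast, immune and other lists are not. Neighbours, Igf1, Igf1r, and marker genes beyond these were added after values were seen. Alternatives were DESeq2-type size factors, library totals, no filter, 10 counts in every library, DESeq2 1.42.0, limma-voom (limma 3.58.1), 6 libraries, equal depth, leaving out each library and a replicate block. Marker lists and marker genes with each library left out were added after seeing the data. Figures used matplotlib 3.10.9.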

Additional observations from a re-analysis of the deposited data

How the results depend on the processing

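Calls among the members from 60 to 90 days stayed at 0 under all 18 alternatives run. Their median log2 difference at that step, 0.05, ran from -0.13 to 0.04 over leaving out each library. Their median log2 difference at 60 against 30 days was -0.42 and ran from -0.69 (without 60-day sample 3) to -0.30 over leaving out each library. All-gene calls were 238, 39 and 544 for 60 against 30, 90 against 60 and 90 against 30 days. Without a low-count filter they were 459, 354 and 1045, and with DESeq2 369, 141 and 860. For 60 against 30 days library totals gave 90 and limma-voom 152. Leaving out each library gave 73 to 244, 16 to 103 and 184 to 703. At 60 against 30 days the libraries that moved the count by over 1.5 times were 30-day samples 1, 2 and 3 (102, 132 and 147) and 60-day sample 2 (73). At 90 against 60 days they were 30-day sample 1 (87), 60-day samples 2 and 3 (19 and 103) and 90-day sample 2 (16), and at 90 against 30 days 30-day samples 1 and 2 (184 and 333) and 90-day samples 2 and 3 (190 and 246). With library totals the calls at 90 against 30 days were 406 higher and 34 lower, where TMM gave 275 and 269, at 90 against 60 days 19 and 9, where TMM gave 14 and 25, and at 60 against 30 days 79 and 11, where TMM gave 173 and 65. Other imprinted genes called at 90 against 30 days were 0, or 2 with DESeq2, and 0 to 1 over leaving out each library.

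Signs that turned from 60 to 90 days were those of small differences. Mest was 0.05 and became -0.12 at equal depth, with -0.26 to 0.47 over leaving out each library. Grb10 was -0.16 and became 0.01 with library totals. H19 ran from -0.24 to 0.99 and Cdkn1c from -0.08 to 0.13 over leaving out each library. The cause was not tested.

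Same-numbered libraries deviated together weakly or not at all, with r over genes of -0.06 to 0.191 in 9 pairs. For 1 of 9 libraries its own number was the best match at both other time points. Weak correlations cannot exclude that the numbers pair the samples, so this is not decided. With the replicate block the calls at 60 against 30, 90 against 60 and 90 against 30 days were 270, 92 and 717. Without it they were 238, 39 and 544. Among the members 0 passed at 90 against 60 days with the block. Depth limits H19, Dlk1 and Igf2 most, at 49 counts or fewer in every library.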
